A study of Homo sapiens with 12 samples.

Results

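The genes of the proteasome were followed in the human cell line AsPC-1, an established line from a pancreatic ductal adenocarcinoma, after *BACH1* was lowered by a small interfering RNA (siRNA) or cut by Cas9. The members are the protein-coding genes counted in both experiments whose symbol starts with PSMA, PSMB, PSMC, PSMD, PSME, PSMF or PSMG and ends in a number, without *PSMB8* and *PSMB9*, and 45 of 57820 genes met that rule. They are 8 genes of the α ring, 7 of the constitutive β ring, the inducible β gene *PSMB10*, 6 ATPase genes and 11 other genes of the 19S particle, 3 chaperones of the 19S base, 4 activators, 1 inhibitor and 4 chaperones of the 20S core. Total RNA freed of ribosomal RNA was sequenced in 12 libraries, 3 in each of 4 groups. The siBACH1 group was transfected with siRNA against *BACH1* and harvested 24 h later, and siCont is the control group of that experiment. The sgBACH1 group was infected with a lentiCRISPR v2 virus, which carries Cas9 together with a guide RNA, in this case against *BACH1*, and was selected in 10 µg/ml puromycin, with sgCont as its control group. The labels do not say whether the infected cells were a clone or a pool, nor what the control siRNA and control guide were. Nothing in them tells whether replicates were grown as separate cultures, so every p-value rests on a spread between libraries that may be no more than technical.

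The proteasome is the protease that degrades proteins tagged with ubiquitin. Its 20S core is a barrel of stacked rings, with α subunits at the ends as a gate and β subunits inside, a few of which carry the protein-cutting sites, and the 19S particle on top binds, unfolds and feeds in the tagged proteins. Cells keep the supply of subunits matched to demand through the transcription factors NRF1 (gene *NFE2L1*) and NRF2 (gene *NFE2L2*), which bind antioxidant response elements in DNA as partners of small MAF proteins, and *BACH1* is a heme-binding repressor that can occupy elements of the same type.

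Total counts ran from 13099706 to 21478886 per library. *BACH1* stood between 24.6 and 27.5 CPM (counts scaled to 1000000 per library, with TMM factors over all 12 libraries) in siBACH1 and between 195.0 and 289.1 CPM in siCont, a log2 fold change of -3.15 ± 0.17 (SE, n = 3 each). In the knockout experiment it stood between 186.5 and 219.9 CPM in sgBACH1 and between 270.1 and 294.8 CPM in sgCont, a log2 fold change of -0.48 ± 0.08. *HMOX1*, the best known target of the repressor, rose by 4.70 and 5.70 on the log2 scale. The 8 ductal epithelial markers, keratins among them, summed to 12408 ± 916 CPM in siCont and 13026 ± 179 CPM in siBACH1, and to 19630 ± 939 CPM in sgCont and 13269 ± 860 CPM in sgBACH1 (SD, n = 3 each). Marker lists of blood, endothelium, acinar and endocrine cells summed to at most 4.51 CPM in any library. The fibroblast list, of whose 6 genes *LUM* alone was high enough to be tested, stood at 297.0 ± 4.72 CPM in siCont and 348.9 ± 10.8 CPM in siBACH1, and at 124.9 ± 13.1 CPM in sgCont and 49.3 ± 3.33 CPM in sgBACH1. Replicate 2 of siCont stood apart from its group, with a chi-square per degree of freedom of 30.5 and 35.8 against the others, which differed from each other by 8.89.

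With the siRNA most proteasome genes had lower values than in the control. By edgeR's quasi-likelihood test (adjusted p below 0.05, Benjamini-Hochberg over all genes) 10 of the 43 tested members fell and 2 rose, and 31 did not pass the test. Without siCont replicate 2, the library that stood apart, 17 fell and 3 rose, and without siBACH1 replicate 1, 2 or 3 the falls numbered 5, 4 and 5 and the rises 1 each. Over the 14591 genes tested with all libraries, 13.0% fell and 10.9% rose. In the refit without siCont replicate 2, 2608 of all 15112 genes fell and 2513 rose. Without siBACH1 replicate 1, 2 or 3 the falls over all genes were 1189 of 15129, 1255 of 15078 and 1275 of 15078. The rises were 813, 823 and 821. The median log2 fold change of the tested members was -0.18 beside 0.005 for all genes, and 34 members, or 79.1%, lay below 0 beside 49.5% of all genes. The siBACH1 and siCont libraries had no overlap in 23 members that were lower and 4 that were higher in siBACH1, beside 20.7% and 21.9% of all genes. The remaining 2 members were too low to be tested: *PSMA8*, the α gene of the testis, had 3 counts and *PSMB11*, the β gene of the thymus, had 2 counts over all 12 libraries. In RNA from whole cultures, fewer cells that express a gene and less RNA per cell cannot be told apart.

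**Figure D1:**
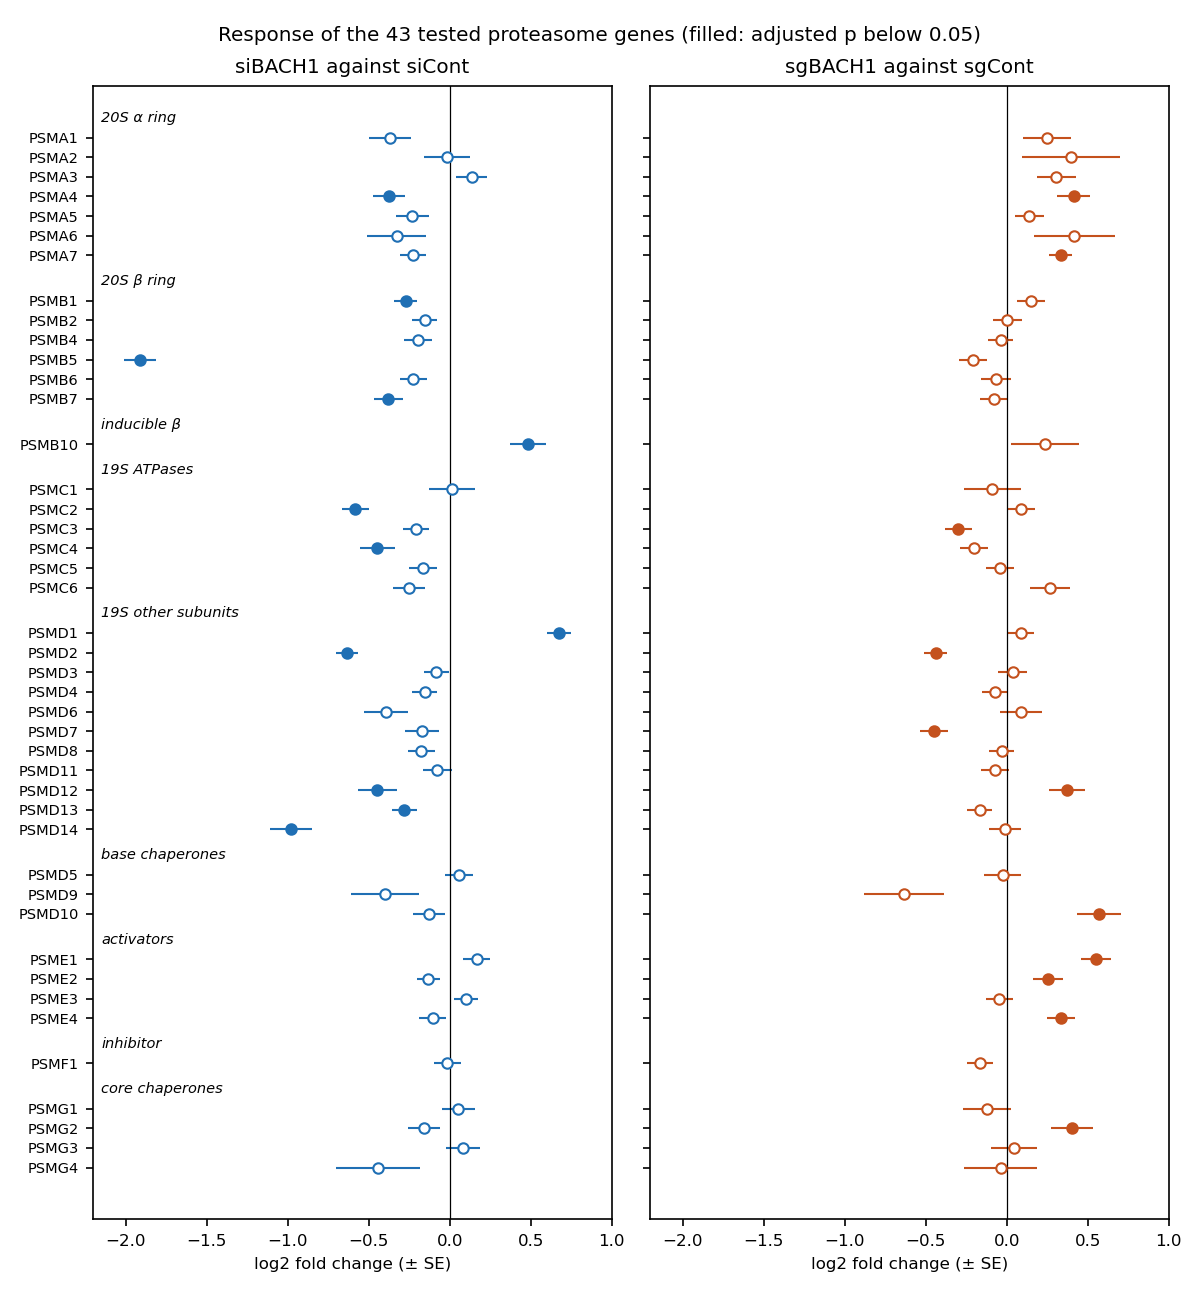
Log2 fold changes (x axis, ± SE) of the 43 tested proteasome genes by role, for siBACH1 against siCont on the left and sgBACH1 against sgCont on the right, with filled points at an edgeR adjusted p below 0.05. On the left most points lie below 0 and PSMB5 is the lowest at -1.91, and on the right all 7 tested α genes lie above 0.

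The β ring held the largest single change. *PSMB5*, which encodes the subunit with the chymotrypsin-like site and the main target of proteasome inhibitor drugs, stood at 82.9, 72.2 and 79.3 CPM in siCont and at 19.5, 20.8 and 22.2 CPM in siBACH1. The group means of 78.1 ± 5.46 and 20.8 ± 1.38 CPM (SD, n = 3 each) make a 3.76-fold fall (log2 -1.91 ± 0.10, edgeR adjusted p = 3.80e-06), and the groups lay far apart. *PSMB7*, with the trypsin-like site, stood at 118, 138 and 117 CPM in siCont and 97.0, 95.8 and 95.4 CPM in siBACH1, and fell by 0.38 ± 0.09 on the log2 scale (SE, edgeR adjusted p = 0.0134). *PSMB6*, with the caspase-like site, stood at 82.8, 80.0 and 76.2 CPM in siCont and 66.4, 73.1 and 65.8 CPM in siBACH1. Its libraries did not overlap either, but its log2 fold change of -0.22 ± 0.08 did not pass the test (edgeR adjusted p = 0.0877). Among the β subunits without a cutting site, *PSMB1* stood at 128, 125 and 125 CPM in siCont and 101, 107 and 105 CPM in siBACH1 and fell by 0.27 ± 0.07 (edgeR adjusted p = 0.0235). *PSMB2* and *PSMB4* had log2 fold changes of -0.16 and -0.20, neither past the test. All 6 tested β genes were below 0 and had groups that did not overlap.

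*PSMB10* went the other way. It encodes the inducible subunit that takes the place of the *PSMB7* product in immunoproteasomes, and it stood at 28.1, 22.5 and 28.3 CPM in siCont and 37.3, 37.0 and 36.6 CPM in siBACH1. Every siBACH1 library was above every control, a rise of 0.49 ± 0.11 on the log2 scale (SE, edgeR adjusted p = 0.0124). Reads of *PSMB10* are uncertain, since it shares 644 exon bases with *AC040162.1* on the same strand. Per kb of exon, the level of *PSMB10* was 0.206 ± 0.042 of that of *PSMB7* in siCont and 0.371 ± 0.001 in siBACH1 (SD, n = 3 each). The ratio of *PSMB5* to *PSMB6* per kb went from 0.805 ± 0.059 to 0.250 ± 0.023, while that of *PSMB7* to *PSMB6* was 1.27 ± 0.120 and 1.14 ± 0.068. Within the set of cutting subunits the siRNA thus left *PSMB5* low beside the others. The calls of *PSMB1*, *PSMB7* and *PSMB10* were each lost when siBACH1 replicate 1, 2 or 3 was left out (edgeR adjusted p from 0.0511 to 0.111), that of *PSMB1* also without siCont replicate 1 or 3 or without the filter on low counts (0.0969), and that of *PSMB10* in 1 fit of 12 libraries (0.0502), whereas *PSMB5* kept its call in every alternative.

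Sequence matches were then set beside the falls. An earlier look at these data had found, among genes that fell with this siRNA, the letters AACATTA and ACATTAA in the 3′ untranslated region (UTR), so the transcripts of GENCODE 29 (GRCh38) were searched for both on the sense strand. The sources used here do not give the letters of the siRNA itself. A match was present in 6 of the 45 members, *PSMA4*, *PSMB2*, *PSMB5*, *PSMD9*, *PSMD12* and *PSMF1*. Of those 6, *PSMA4*, *PSMB5* and *PSMD12* fell, beside 7 of the 37 tested members with no match. Over all genes tested with an annotated 3′ UTR, 31.1% of those with a match fell and 8.82% of those without. The letters had been picked from falls in these same data, so these shares are no independent support. In the knockout 13.0% of those with a match fell and 14.7% of those without, and of the 6 members with a match 0 fell and 2 rose. For each of the 3 members that fell with the siRNA the match in a main annotated transcript is shown with 8 bases on each side and the searched letters in capitals.
PSMB5: tggatgttAACATTAcactactc
PSMA4: tgcttaggAACATTAaacagcac
PSMD12: tcctgtcaAACATTAatccagca
The *PSMB5* match lies at chr14:23025873-23025879 (GRCh38, minus strand), at base 210 of the 238 bases of the 3′ UTR of PSMB5-202, a main annotated transcript of the gene. The *PSMA4* match lies at chr15:78550626-78550632 (plus strand), at base 1682 of 3475, and overlaps a match to the other letters. The printed *PSMD12* match lies at chr17:67338431-67338437 (minus strand), at base 2406 of 2927, and also overlaps one to the other letters. *PSMD12* holds a further AACATTA, at chr17:67348613-67348619, in another transcript. A match is a description of the letters and no binding site, and its part in these falls was not tested. The 37 tested members without a match had a median log2 fold change of -0.17, beside 0.07 for all tested genes without one, and the 6 with a match -0.39, beside -0.19. A refit without any gene that holds a match, which resets the scaling, put the median of the remaining members at -0.23.

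In the 19S particle the falls included the subunit that removes ubiquitin. *PSMD14*, the deubiquitinase of the 19S lid, stood at 92.8, 126 and 103 CPM in siCont and 48.2, 58.6 and 57.0 CPM in siBACH1, with a log2 fold change at -0.98 ± 0.13 (SE, edgeR adjusted p = 7.17e-04). *PSMD2*, one of the large scaffold subunits of the base, stood at 186, 191 and 192 CPM and 125, 124 and 119.7 CPM, a log2 fold change of -0.63 ± 0.07 (edgeR adjusted p = 2.71e-04). The ATPase gene *PSMC2* stood at 122, 124 and 116 CPM and 75.2, 80.9 and 86.2 CPM, a log2 fold change of -0.58 ± 0.08 (edgeR adjusted p = 0.00108). In all 3 genes the groups were well separated, and the call held in every alternative. The ATPase gene *PSMC4* stood at 80.1, 99.4 and 87.1 CPM in siCont and 71.5, 62.3 and 62.7 CPM in siBACH1, and fell by 0.45 ± 0.11. The lid genes *PSMD12* and *PSMD13* fell by 0.45 ± 0.12 and 0.28 ± 0.08. *PSMD12* stood at 38.9, 51.3 and 45.8 CPM in siCont and 34.7, 30.5 and 34.9 CPM in siBACH1, so that here too the groups did not overlap. The call of *PSMC4* was lost without siBACH1 replicate 2 or 3 (edgeR adjusted p up to 0.0727), and those of *PSMD12* and *PSMD13* without siCont replicate 3 or any siBACH1 replicate (up to 0.114 and 0.121), that of *PSMD13* also without siCont replicate 1, with upper quartile scaling (0.0542) or without the filter on low counts (0.0723).

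*PSMD1* was the exception in the base. It encodes the other large scaffold subunit, stood at 154, 139 and 157 CPM in siCont and 237, 239 and 244 CPM in siBACH1, and rose by 0.67 ± 0.08 on the log2 scale (SE, edgeR adjusted p = 2.84e-04), a call that held in every alternative. The scaffold genes *PSMD1* and *PSMD2* therefore moved in opposite directions, and all 3 siBACH1 libraries lay outside the range of the controls in each. *PSMD1* shares 559 exon bases with *HTR2B* on the opposite strand, and the sources used here do not say whether counting used strand. The remaining 10 tested ATPase and other 19S genes did not pass the test, with log2 fold changes from -0.39 for *PSMD6* to 0.01 for *PSMC1*. Reads of *PSMC1* are uncertain, since the annotation holds 13 pseudogene copies of it and *NRDE2* shares 4671 exon bases on the other strand.

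**Figure D2:**
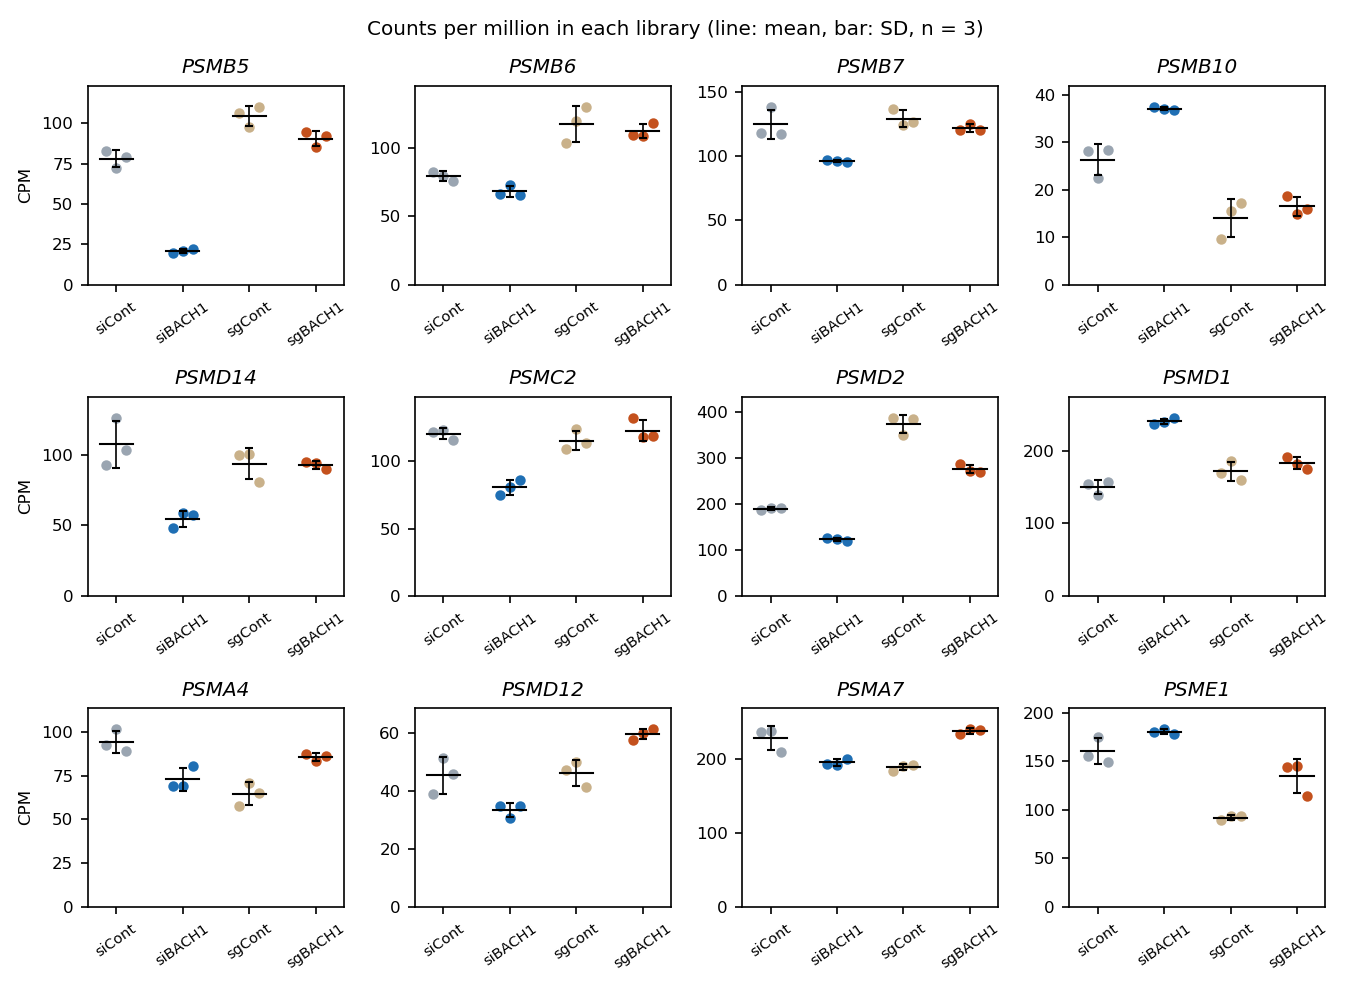
CPM (y axis) in each of the 12 libraries for 12 proteasome genes, by group (x axis), with the mean as a line and the SD as a bar (n = 3). PSMB5, PSMD14 and PSMC2 are lower in siBACH1 than in siCont, PSMD2 is lower in both BACH1 groups than in their controls, and PSMA4 and PSMD12 are lower in siBACH1 but higher in sgBACH1 than in their controls.

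In the α ring 1 gene fell with the siRNA. *PSMA4* stood at 92.3, 101 and 89.0 CPM in siCont and 69.1, 69.2 and 80.5 CPM in siBACH1 and fell (log2 -0.37 ± 0.10, edgeR adjusted p = 0.0211). Its call was lost without siBACH1 replicate 1 or 2 (edgeR adjusted p = 0.102 in each). The other 6 tested α genes had log2 fold changes from -0.37 for *PSMA1* to 0.13 for *PSMA3*. None of the 4 activators, the inhibitor *PSMF1*, the 3 base chaperones or the 4 core chaperones passed the test. Their log2 fold changes ran from -0.44 for *PSMG4*, a low gene with 10.4 ± 3.12 CPM in siCont, to 0.17 for *PSME1*. Summed over all 45 members, proteasome RNA stood at 3836 ± 61 CPM in siCont and 3401 ± 44 CPM in siBACH1 (SD, n = 3 each). By role, the β ring went from 719.6 ± 23.2 to 565.3 ± 10.2 CPM, the ATPases from 475.5 ± 20.3 to 380.7 ± 8.33 CPM and the α ring from 577.9 ± 44.5 to 499.5 ± 25.1 CPM. The activators, at 511.1 ± 2.28 and 523.4 ± 2.97 CPM, showed no such fall.

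**Figure D3:**
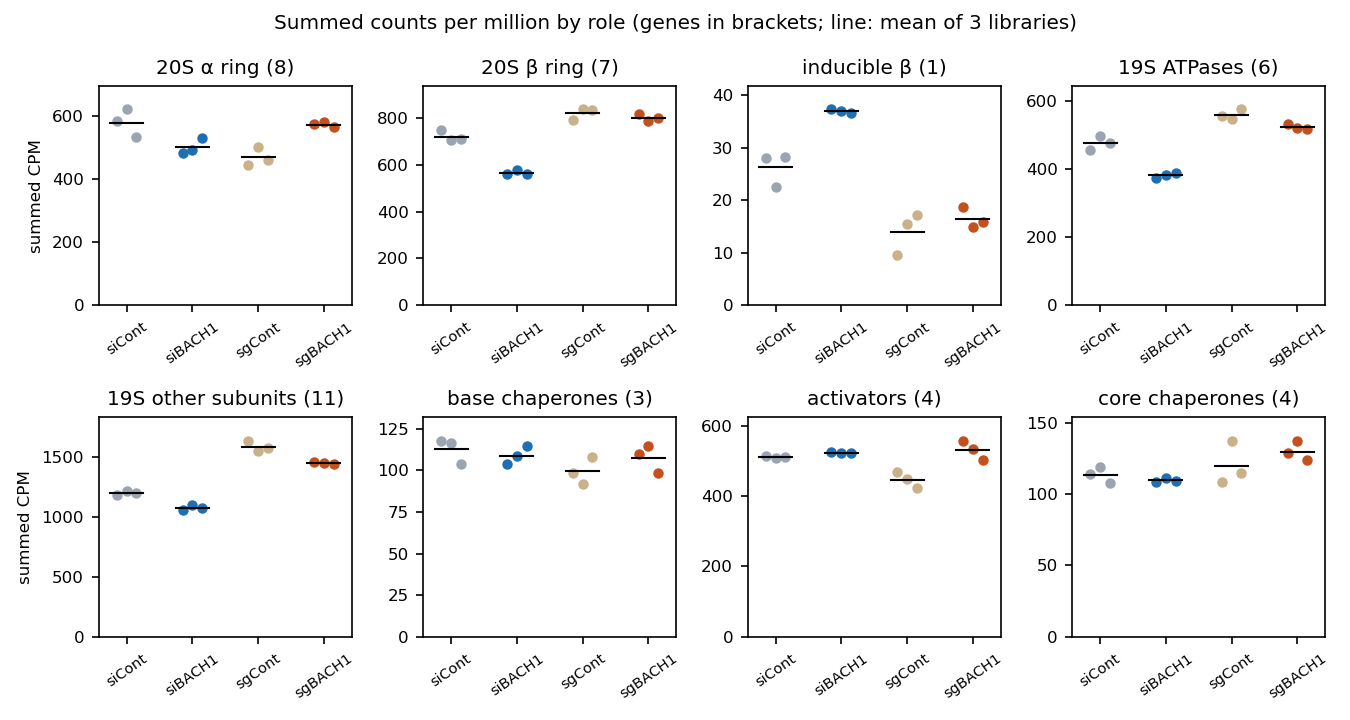
Summed CPM (y axis) of the genes of each role in the 12 libraries by group (x axis), with the mean of 3 libraries as a line. The β ring and the ATPases are lower in siBACH1 than in siCont, and the α ring and the activators are higher in sgBACH1 than in sgCont.

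Of the 14 listed parts and partners outside the symbol rule, 3 fell with the siRNA and none rose. *POMP*, the chaperone that drives maturation of the β ring, stood at 76.2, 82.3 and 67.0 CPM in siCont and 24.1, 26.9 and 21.6 CPM in siBACH1, with a log2 fold change at -1.64 ± 0.12 (SE, edgeR adjusted p = 2.17e-05). *UBE3C*, a ubiquitin ligase bound to the proteasome, and *UCHL5*, a deubiquitinase of the 19S particle, fell by 0.79 ± 0.07 and 0.66 ± 0.14. All 3 hold one of the searched sequences in a 3′ UTR, as do 5 of the other 11, none of them called (*PAAF1*, *SEM1*, *TXNL1*, *USP14* and *ZFAND5*). Of 7 genes of the NRF1 pathway, *DDI2*, the protease that releases active NRF1, rose by 0.58 ± 0.09 and *SEL1L*, which serves the degradation of proteins of the endoplasmic reticulum, fell by 0.89 ± 0.18. *NFE2L1* and *NFE2L2* did not pass the test (log2 -0.12 and -0.12). Of 17 genes of ubiquitin supply and transfer, *SQSTM1* and *BAG1* rose by 0.70 and 0.54, and *UBQLN1*, a shuttle that brings tagged proteins to the proteasome, fell by 1.23 ± 0.08, followed by *UBB*. Among the called genes of both lists *SEL1L*, *UBQLN1* and *SQSTM1* hold a searched sequence, and *DDI2*, *BAG1* and *UBB* do not. The uncalled *NGLY1*, *UBA6* and *UBQLN2* hold one too. Of 13 genes of interferon response and antigen processing none rose, so the rise of *PSMB10* stood beside no called rise in that list. The immunoproteasome genes *PSMB8* and *PSMB9* had log2 fold changes of 0.04 and -0.19.

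In the knockout genes of the α ring and the activators were among the risers, and no β gene passed the test. By edgeR 8 of the 43 tested members rose and 3 fell, beside 11.3% and 12.3% of the 14469 genes tested, and 32 did not pass. The rises numbered 5 without sgCont replicate 3 or sgBACH1 replicate 1 or 3. Over all genes those refits had 1523 of 15016, 1175 of 15158 and 1245 of 15028 rises. The falls numbered 5 without sgCont replicate 2, and 2 without sgCont replicate 1 or sgBACH1 replicate 1 or 3. Over all genes these were, in that order, 1847 of 15123, 1594 of 15017, 1325 of 15158 and 1409 of 15028. The median log2 fold change was 0.005 for the members and 0.006 for all genes, and 21 members, or 48.8%, lay below 0 beside 49.4% of all genes. Groups did not overlap in 10 members that were higher and 8 that were lower in sgBACH1, beside 18.1% and 18.4% of all genes. In the same libraries all 8 ductal markers were called, with *KRT7*, *KRT8*, *KRT18* and *KRT19* lower and *EPCAM*, *CDH1*, *SOX9* and *MUC1* higher in sgBACH1, and *LUM* fell by 1.34 on the log2 scale (edgeR). With the siRNA 3 ductal markers rose and 2 fell, and *LUM* rose by 0.23. The part of these shifts in the members' changes was not tested. The summed level of all members was 4242 ± 16 CPM in sgCont and 4244 ± 69 CPM in sgBACH1 (SD, n = 3 each).

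All 7 tested α genes lay above 0 in the knockout, with a median log2 fold change of 0.33, and 2 of them passed the test. *PSMA4* stood at 57.7, 70.7 and 65.2 CPM in sgCont and 87.6, 83.3 and 86.4 CPM in sgBACH1, a rise of 0.41 ± 0.10 (SE, edgeR adjusted p = 0.00319). *PSMA7*, the α gene with the highest level, stood at 184, 190.5 and 191 CPM and 233, 239.5 and 239 CPM, a rise of 0.33 ± 0.07 (edgeR adjusted p = 0.00119). In both genes every sgBACH1 library was above every control, and both calls held in every alternative. The α ring summed to 467.7 ± 30.7 CPM in sgCont and 571.5 ± 7.96 CPM in sgBACH1, and the activators to 447.1 ± 22.3 and 531.2 ± 27.6 CPM. The 19S genes other than ATPases summed to 1590 ± 42.9 and 1452.5 ± 11.8 CPM, and the ATPases to 558.3 ± 14.2 and 522.8 ± 7.70 CPM. These lower sums hold the called falls of *PSMD2*, *PSMD7* and *PSMC3* and do not describe most 19S genes. The median log2 fold change was -0.03 for the 11 genes other than ATPases, 7 of them below 0. For the 6 ATPase genes it was -0.07, with 4 below 0. The β ring stood at 820.4 ± 26.7 and 800.7 ± 13.9 CPM. *PSMB5* stood at 106, 97.9 and 110.0 CPM in sgCont and 94.5, 85.5 and 91.9 CPM in sgBACH1, lower in all 3 sgBACH1 libraries but with an adjusted p of 0.097 by edgeR (log2 -0.21 ± 0.09), which became 0.0499 without sgCont replicate 2. The ratio of *PSMB5* to *PSMB6* per kb was 0.734 ± 0.092 in sgCont and 0.662 ± 0.038 in sgBACH1. *PSMB6* stood at 104, 120.1 and 130.1 CPM and 109.9, 109 and 118 CPM, and *PSMB7* at 136, 124 and 127 CPM and 119.9, 125 and 120.5 CPM, with overlapping groups in each. *PSMB10* stood at 9.62, 15.4 and 17.1 CPM and 18.7, 14.8 and 15.9 CPM, also with overlap (log2 0.23 ± 0.21, edgeR adjusted p = 0.487).

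Of the 4 activators 3 rose in the knockout. *PSME1* and *PSME2* encode the paired subunits of the interferon-inducible ring that opens the core without ubiquitin or ATP. *PSME1* stood at 88.9, 93.3 and 93.2 CPM in sgCont and 144, 145 and 114 CPM in sgBACH1, a rise of 0.55 ± 0.09 (SE, edgeR adjusted p = 9.73e-05), and this call held in every alternative. *PSME2* stood at 82.6, 76.1 and 72.9 CPM and 93.5, 90.0 and 93.0 CPM, a rise of 0.26 ± 0.09 (edgeR adjusted p = 0.0446). The groups of both genes were separated, but the call of *PSME2* was lost without any one of 5 libraries (edgeR adjusted p up to 0.130), all but sgCont replicate 1, and without the filter on low counts (0.0954). *PSME4*, a large activator of the nucleus, stood at 124, 131 and 106 CPM and 161, 147 and 146 CPM, a rise of 0.33 ± 0.09 that was lost without sgBACH1 replicate 1 (edgeR adjusted p = 0.0578). *PSME3*, whose product forms a nuclear ring of its own, had a log2 fold change of -0.04 ± 0.08. *PSME2* shares 216 exon bases with *RNF31* on the opposite strand and has 2 pseudogene copies.

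Among the chaperones *PSMD10* and *PSMG2* rose. *PSMD10*, also known as gankyrin, holds an ATPase pair during assembly of the base, and stood at 25.2, 25.2 and 29.1 CPM in sgCont and 43.3, 36.6 and 38.1 CPM in sgBACH1 (log2 0.57 ± 0.13, edgeR adjusted p = 0.00266). *PSMG2*, which helps to build the α ring, stood at 31.8, 41.0 and 33.3 CPM and 51.2, 43.7 and 45.2 CPM (log2 0.40 ± 0.13, edgeR adjusted p = 0.0253), with every sgBACH1 library above the controls. The call of *PSMG2* was lost without sgCont replicate 1 or 3 or sgBACH1 replicate 1 or 3 (edgeR adjusted p up to 0.145). The annotation holds 3 pseudogene copies of *PSMD10*, and *PSMG2* shares 468 exon bases with *CEP76* on the opposite strand. In the 19S particle the lid gene *PSMD12* rose by 0.37 ± 0.11, from 47.3, 49.95 and 41.3 CPM in sgCont to 57.8, 60.1 and 61.3 CPM in sgBACH1. Its groups did not overlap, but its call was lost without sgCont replicate 3 or sgBACH1 replicate 2 or 3 (edgeR adjusted p up to 0.0756).

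The 3 falls in the knockout were all in the 19S particle. *PSMD2* stood at 387, 351 and 385 CPM in sgCont and 287, 273 and 269 CPM in sgBACH1, with a log2 fold change at -0.44 ± 0.07 (SE, edgeR adjusted p = 4.23e-05). *PSMD7*, the inactive partner of the deubiquitinase *PSMD14*, stood at 103, 109 and 109 CPM and 81.0, 75.4 and 78.7 CPM, a log2 fold change of -0.45 ± 0.09 (edgeR adjusted p = 4.16e-04). It shares 842 exon bases with *AC009120.2* on the opposite strand. The ATPase gene *PSMC3* stood at 183, 155 and 184 CPM and 138, 146 and 140.2 CPM, a log2 fold change of -0.30 ± 0.08 (edgeR adjusted p = 0.00953). All sgBACH1 libraries were below all controls in these 3 genes. The call of *PSMC3* was lost without sgCont replicate 1 or sgBACH1 replicate 1 or 3 (edgeR adjusted p up to 0.0617), and the other 2 calls held in every alternative. The base chaperone *PSMD9* had the lowest log2 fold change of the members, -0.63 ± 0.25, but at 9.90 ± 1.59 and 6.38 ± 0.428 CPM (SD, n = 3 each) it did not pass the test (edgeR adjusted p = 0.0705).

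Several of these genes moved with the genes around them on the chromosome. For each member the median log2 fold change was taken over up to 50 tested genes on each side. Around *PSMD10*, on chromosome X from 86.1 to 130.0 Mb (GRCh38), the 100 neighbours had a median of 0.62 in the knockout, with 47 of them up and 4 down, against 0.57 for *PSMD10* itself. Around *PSMD2* on chromosome 3 the median was -0.30, with 1 up and 34 down, and around *PSMD9* on chromosome 12 it was -0.30, with 4 up and 40 down. The neighbours of *PSMA7* on chromosome 20, *PSMG2* on chromosome 18 and *PSMD7* on chromosome 16 had medians of 0.22, 0.15 and -0.12. By contrast, those of *PSMA4*, *PSMD12*, *PSME1*, *PSME2*, *PSME4* and *PSMC3* lay between -0.04 and 0.05. With the siRNA the neighbours of *PSMB5*, *PSMD14*, *PSMD2*, *PSMC2* and *PSMD1* had medians of 0.04, -0.11, -0.10, -0.04 and 0.04. The genes themselves had -1.91, -0.98, -0.63, -0.58 and 0.67. In that order 8, 8, 7, 4 and 13 neighbours were up and 9, 21, 23, 13 and 12 down. Over all genes 10.9% were up and 13.0% down. The part of the neighbours' shift in the members' calls was not tested.

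**Figure D4:**
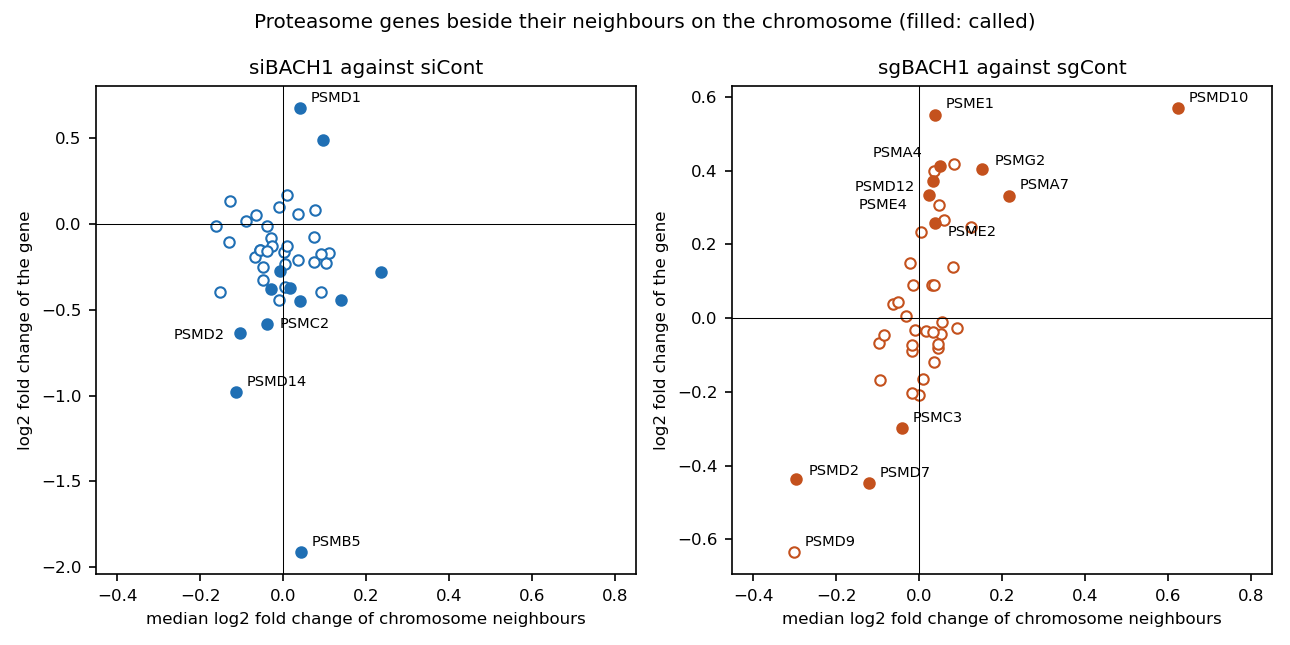
Log2 fold change of each tested proteasome gene (y axis) against the median log2 fold change of up to 50 tested genes on each side of it (x axis), with filled points for genes called by edgeR. On the right PSMD10, PSMA7, PSMG2, PSMD2 and PSMD7 lie away from 0 on both axes, whereas PSME1 and PSMA4 are high with neighbours near 0.

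Promoter sequences of RefSeq (GRCh38.p14), each reaching from 250 bases before to 50 bases after a start site, were on hand for 39 members in 47 windows, all but *PSMA7*, *PSMB1*, *PSMB6*, *PSMB7*, *PSMD4* and *PSMG3*. They were searched on both strands for TGANNNNGC, the core of the antioxidant response element, and 59.6% of the members' windows held it beside 41.8% of all 35116 windows. The longer form TGANTCAGC, a case of that core, was in 2.13% of the members' windows beside 1.36% of all, and TGANTCA, which overlaps it, in 6.38% beside 7.71%. CCAAT, the element bound by the general factor NF-Y, was in 38.3% beside 34.6%. A member with several windows was counted as a holder if any of them held the core. By that count 25 of the 39 searched members held it. No such share per gene was taken over all genes, so the shares of windows are no measure for the counts that follow. Of the 7 searched members that rose in the knockout 6 held the core, as did 1 of the 3 that fell and 16 of the 27 that did not pass. With the siRNA the core was held by 6 of the 8 searched members that fell, 1 of the 2 that rose and 16 of the 27 that did not pass. The core of each riser is printed with 10 bases on each side, in capitals, on the strand of the gene, together with the single longer site, that of *PSMD9*.
PSMA4: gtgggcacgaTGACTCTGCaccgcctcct
PSMD12: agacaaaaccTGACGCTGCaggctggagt
PSME1: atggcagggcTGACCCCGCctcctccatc
PSME2: ccctggactgTGACCCAGCcagcaccgcc
PSME4: gtgtttccggTGAGGCAGCctcgcgctgg
PSMG2: cagtttcccgTGACCCCGCggccgctctg
PSMD9: aatgagaaaaTGAGTCAGCtggggcgaga
In that order the cores lie at chr15:78540660-78540668, chr17:67366734-67366742, chr14:24136108-24136116, chr14:24146777-24146785, chr2:53971205-53971213, chr18:12658699-12658707 and chr12:121888563-121888571 (GRCh38.p14). They start 126, 165, 86, 175, 220, 39 and 227 bases before the start site used for the window. Of the 3 windows of *PSMA4* only 1 held the core. The printed cores of *PSMA4*, *PSMG2* and *PSME2* lie inside the annotated genes, whose 5′ ends are at chr15:78540405, chr18:12658043 and chr14:24147570 (minus strand). *PSME2*, *PSME4* and *PSMG2* held further cores that are not printed. *PSMD10* was the riser with no core in its window. These are matches of letters in fixed windows, and none is shown to be bound.

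In the knockout 1 of the 7 NRF1 pathway genes rose and 1 fell. *NFE2L2* rose by 0.45 ± 0.09 (SE, edgeR adjusted p = 2.65e-04) and *NFE2L1* fell by 0.39 ± 0.08 (edgeR adjusted p = 3.83e-04). Of the 14 parts and partners *SEM1*, a small lid subunit, rose by 0.26, and *UBE3C* and *PSMB8* fell by 0.46 and 0.47. *PSMB8* encodes the inducible counterpart of *PSMB5*, and its fall stood beside rises of *PSME1* and *PSME2*. *POMP* had a log2 fold change of 0.22 ± 0.10 that did not pass (edgeR adjusted p = 0.129). Of 17 genes of ubiquitin supply and transfer *SQSTM1* and *RPS27A* rose and *BAG6* fell. Of 13 genes of interferon response and antigen processing *TAP1*, *ERAP2* and *IRF1* rose.

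The responses of the same gene to the siRNA and to the knockout were set against each other in 1 edgeR fit of all 12 libraries, in which the experiments share no control. The knockout response was the higher in 14 of the 43 tested members and the lower in 1, beside 13.0% and 10.6% of the 15644 genes tested, and 28 did not pass. *PSMD2* was the 1 member called in the same direction in both experiments, and *PSMA4* and *PSMD12* were the 2 called in opposite directions. For *PSMB5* the responses differed by 1.70 ± 0.13 on the log2 scale (SE, edgeR adjusted p = 8.20e-08), for *PSMD14* by 0.96 ± 0.17 and for *PSMD12* by 0.81 ± 0.16. These 3 genes fell with the siRNA, and their log2 fold changes in the knockout were -0.21, -0.01 and 0.37. The α genes *PSMA4*, *PSMA1* and *PSMA7* differed by 0.78 ± 0.14, 0.61 ± 0.18 and 0.55 ± 0.10, and *PSMB1* by 0.42 ± 0.11. The ATPase genes *PSMC2* and *PSMC6* differed by 0.67 ± 0.12 and 0.51 ± 0.16, and the chaperones *PSMD10* and *PSMG2* by 0.69 ± 0.16 and 0.56 ± 0.17.

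*PSMA1* and *PSMC6* passed this test although neither passed in an experiment of its own. *PSMA1* stood at 35.2, 38.8 and 31.7 CPM in siCont, 27.6, 23.5 and 31.1 in siBACH1, 24.2, 23.0 and 20.0 in sgCont and 27.6, 26.1 and 26.0 CPM in sgBACH1. *PSMC6* stood at 45.6, 51.2 and 44.9 CPM in siCont, 37.3, 39.3 and 42.9 in siBACH1, 39.7, 38.6 and 44.8 in sgCont and 52.4, 52.6 and 43.2 CPM in sgBACH1. In *PSMA1* each *BACH1* group lay wholly on its own side of its control, and in *PSMC6* the sg groups overlapped. *PSMA1* shares 814 exon bases with *AC018523.2* on the same strand. Among the activators *PSME1*, *PSME2* and *PSME4* differed by 0.38 ± 0.13, 0.38 ± 0.11 and 0.43 ± 0.13 (edgeR adjusted p = 0.0475, 0.0165 and 0.0205). *PSME1* stood at 156, 175 and 149 CPM in siCont and 179.9, 183 and 178 CPM in siBACH1, so that it was higher in both *BACH1* groups. *PSME2* stood at 107, 108 and 109 CPM in siCont and 101, 100.1 and 96.1 CPM in siBACH1. *PSMD1* was the 1 member with the lower response in the knockout (-0.59 ± 0.11, edgeR adjusted p = 8.52e-04), where it stood at 169, 185 and 159.6 CPM in sgCont and 191, 182 and 174 CPM in sgBACH1. The difference of *PSME1* was lost in 14 of 18 alternatives and that of *PSMC6* in 8 (edgeR adjusted p up to 0.139 and 0.0770), and those of *PSMA1*, *PSME2*, *PSME4* and *PSMG2* were lost without single libraries (up to 0.0759), or for *PSME2* also without the filter on low counts (0.106).

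**Figure D5:**
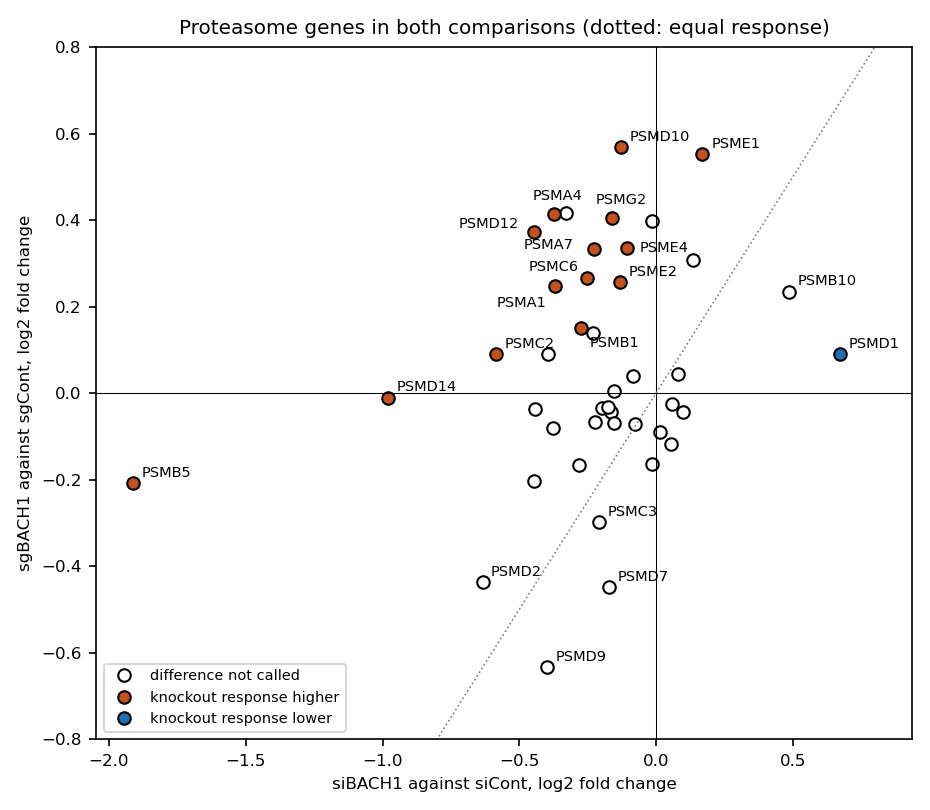
Log2 fold change of each tested proteasome gene with the siRNA (x axis) and in the knockout (y axis), with filled points where the difference of the responses passed edgeR's test and a dotted line of equal response. PSMB5 and PSMD14 lie far to the left near 0 on the y axis, PSMA4 and PSMD12 lie in the upper left, and PSMD1 is the 1 member called below the line.

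Levels between genes were compared per kb of merged exon. *PSMA7* was highest in both control groups, at 129.8 ± 9.22 CPM per kb in siCont and 107.7 ± 2.40 in sgCont, followed by *PSMB4* at 97.4 ± 9.99 and 103.1 ± 3.56 (SD, n = 3 each). In sgCont these overlapped within the sum of their SDs. The median of the 6 expressed β genes was 55.4 CPM per kb in siCont, that of the 6 ATPase genes 26.5, that of the 11 other 19S genes 28.9 and that of the 7 expressed α genes 13.5. Apart from *PSMA8* and *PSMB11*, the lowest levels in siCont were those of *PSMD9*, *PSMG4*, *PSMA6*, *PSMA2* and *PSMC1*, at 0.965, 1.00, 2.17, 2.33 and 2.72 CPM per kb, and *PSMA6*, *PSMA2* and *PSMC1* each have pseudogene copies that can take reads from them. Merged exons count rare long forms, and by the length of the main annotated transcript the medians were 110.3 for the β genes, 49.9 for the ATPase genes, 47.9 for the 9 other 19S genes that have one and 23.4 for the α genes. By that length the order of single genes changed too. *PSMB4* was then the highest in sgCont, at 230.7 ± 7.96 against 189.3 ± 4.21 for *PSMA7*, and *PSMG4* and *PSMA6*, at 12.5 and 13.7 in siCont, lay above *PSMD12* and *PSMG1*, at 10.3 and 11.8. The control groups differed from each other, with *PSMD2* at 189.9 ± 3.13 CPM in siCont and 374 ± 20.3 CPM in sgCont, *PSME1* at 160.0 ± 13.3 and 91.8 ± 2.52 CPM and *PSMB10* at 26.3 ± 3.27 and 14.0 ± 3.92 CPM. Experiment, handling and time cannot be told apart in that contrast, so levels are read within an experiment.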

How the data were processed

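RNA was measured in 12 AsPC-1 libraries on an Ion Proton instrument, and samples were grouped by their titles. Each experiment has 1 table of counts per gene, deposited without normalization. HTSeq 0.9.1, SAMtools and genome hg19 were used by the authors, per the submitters' processing notes. No source used here gives an aligner or a strand setting. Of 57820 gene identifiers, 51996 took a symbol by identifier, none took *PSMB3*, which is not analysed here, and every column of the tables matched a sample.

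The main test was the two-sided quasi-likelihood test of edgeR 4.0.16 (R 4.3.3) after TMM scaling. Genes passed filterByExpr at a minimum count of 10, and p-values were adjusted over all genes tested and called below 0.05. Each experiment was fitted alone, and the difference in 1 fit of 12 libraries. The SE is the log2 fold change divided by the square root of F. CPM are on 1 TMM scale over all 12 libraries. Alternatives used DESeq2 1.42.0, limma 3.58.1 (voom), other scalings, no filter, a replicate block, libraries left out and genes with a 3′ UTR match left out. On simulated counts edgeR recovered 40.3%, 71.6% and 93.9% of changes of 1.5, 2 and 4 fold for the siRNA comparison (14243 genes) and 43.3%, 64.2% and 84.8% for the knockout (13949 genes). False calls were 7.43% and 1.54% of all calls. The simulation changed far fewer genes than were called in the data, so these shares need not carry over to the real calls.

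Coordinates, exon lengths and 3′ UTRs are those of GENCODE 29 (GRCh38) and promoters those of RefSeq, never set against hg19 coordinates. Values per library are given for the up to 6 largest called rises and falls per comparison, for members called in both or in the difference, and for *PSMB5*, *PSMB6*, *PSMB7* and *PSMB10*; of other lists, at most the 3 largest called each way. Not every called gene of the other lists is reported here. Members and lists were chosen with earlier results of these data known. The values of chromosome neighbours and the lengths of main transcripts were added after seeing these data. Replicate numbers were not taken to pair the libraries. Deviations of same-numbered libraries correlated between -0.005 and 0.046, and those of differently numbered ones between -0.051 and 0.021. Values this small do not settle whether the libraries were paired.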

Additional observations from a re-analysis of the deposited data

Results flagged for a closer look

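In 15 members the response to the siRNA and the response in the knockout differed by edgeR's test of the difference itself. The knockout response was the higher by 0.61 on the log2 scale in *PSMA1*, 0.78 in *PSMA4*, 0.55 in *PSMA7*, 0.42 in *PSMB1*, 1.70 in *PSMB5*, 0.67 in *PSMC2*, 0.51 in *PSMC6*, 0.69 in *PSMD10*, 0.81 in *PSMD12*, 0.96 in *PSMD14*, 0.38 in *PSME1*, 0.38 in *PSME2*, 0.43 in *PSME4* and 0.56 in *PSMG2*. In *PSMD1* it was the lower, with a difference of -0.59. Of these genes *PSMA4*, *PSMB5* and *PSMD12* hold a searched 3′ UTR sequence. Around *PSMD10*, *PSMA7* and *PSMG2* the chromosome neighbours had medians of 0.62, 0.22 and 0.15 in the knockout. The part of either in the difference was not tested. The experiments also differ in handling and time, which cannot be told apart from the way *BACH1* was removed.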

How the results depend on the processing

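No called member changed direction under any of the alternatives run. With libraries left out 1 at a time, the siRNA comparison called from 5 to 20 members (12 with all), from 1 to 3 of them higher and from 4 to 17 lower, and their median log2 fold change ran from -0.22 to -0.17. Without siCont replicate 2, the library that stood apart, 20 were called and 17 fell; without siBACH1 replicate 1, 2 or 3, 6, 5 and 6 were called. In 1 fit of 12 libraries 1 member was higher with the siRNA. The median was -0.23 in a refit without genes with a 3′ UTR match, whose removal also resets the scaling. The knockout called from 7 to 14 members (11 with all), from 5 to 9 higher and from 2 to 5 lower; 7 were called without sgBACH1 replicate 1 or 3, 5 rose without sgCont replicate 3 or sgBACH1 replicate 1 or 3, and 5 fell without sgCont replicate 2. Its median lay between -0.0017 and 0.040 with libraries left out, and was 0.010 with upper quartile scaling, -0.0029 without the filter and 0.019 with limma-voom; the cause of these shifts was not tested. The difference called from 10 to 16 members, from 9 to 15 of them higher, with 9 higher without sgBACH1 replicate 1. The calls over all genes moved in the same refits. With the siRNA the falls ran from 1189 of 15129 to 2608 of 15112, and the rises from 813 of 15129 to 2513 of 15112. In the knockout the rises ran from 1175 of 15158 to 1739 of 15123, and the falls from 1321 of 15171 to 1847 of 15123. In the difference 1710 of 16335 genes were higher without sgBACH1 replicate 1. Other scalings and DESeq2 moved no count by over 1.5 times. A replicate block, not used in the main test, called 10 members with the siRNA, 12 in the knockout and 13 in the difference. The calls of *PSMB1* and *PSMD13* with the siRNA and of *PSMC6* and *PSME1* in the difference were then lost. *PSMA8* and *PSMB11* were too low to be tested, and *PSMA2*, *PSMA6*, *PSMC1*, *PSMD9* and *PSMG4* had means of at most 22.2 CPM in both control groups.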
